A study of Mus musculus with 5 samples.

Results

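C-type lectin genes of myeloid cells were followed here by name: Mgl2, Clec10a, Mrc1, Cd209a, Cd209d, Clec4n, Clec4d, Clec4e, Clec7a and Clec4a2. Each of the 10 matched 1 row of the authors' deposited Cuffdiff table, out of 24982 rows, and all 10 were among the 12311 rows that Cuffdiff tested. RNA was sequenced from mouse macrophages taken out of tumors of the 9609 line, a fibrosarcoma whose name carries MCA, the usual short form of methylcholanthrene. The MEK1-low group had 2 libraries, with genotype MEK1-low and MEK1-low (GFP) exosomes as the treatment. The MEK1-hi group had 3 libraries, with genotype MEK1-hi and MEK1-hi exosomes. Exosomes are small vesicles that cells shed, and MEK1 is a kinase of the RAS-ERK cascade. The labels attach the MEK1 names to the tumor line and the exosomes, and give no mouse strain, sex or age, no method of macrophage isolation and no statement that libraries came from separate animals, so the authors' p and q describe the spread of these libraries alone, which may be technical. Every difference is given as MEK1-hi over MEK1-low.

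C-type lectin receptors hold an extracellular domain that, in most of them, binds sugars on microbes, damaged cells or glycoproteins. On macrophages and dendritic cells, some take up their ligand for degradation or presentation. Others signal through the kinase Syk and the adaptor Card9 to inflammatory genes, and a few carry an inhibitory motif that recruits phosphatases. Mrc1 (CD206) and Mgl2 (CD301b) are widely used as markers of interleukin-4-activated macrophages, and Mgl2 also marks a subset of dendritic cells.

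Among the 10 lectin genes, 1 passed Cuffdiff's test at a q under 0.05 and is referred to as called: Mgl2, which was lower in the MEK1-hi group. In the whole table, 1.32% of tested rows were called, 0.325% lower and 0.999% higher. No lectin of the 10 was called higher. Before adjustment, 3 had a p under 0.05 and were lower (Mgl2, Cd209a and Mrc1), and 0 were higher. That p was reached by 6.08% of all tested rows, 2.58% lower and 3.5% higher. The log2 differences of the 10 lectins lay below 0 in 7 and above 0 in 3, and their median was -0.25, beside -0.02 over all tested rows. The table gives 1 pooled FPKM (fragments per kilobase of transcript, scaled to the library's size) for each group. An SD is therefore missing, and the error of each difference is known only through the Cuffdiff statistic, p and q.

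The levels of the 10 genes spanned a wide range. Of the 10, the most abundant in both groups was Clec7a, and Cd209d was the least abundant. In the MEK1-low group, Clec7a at 288 FPKM was followed by Mrc1 at 236 and Clec4n at 206, as the authors' deposited table gives them. In the MEK1-hi group, the order behind Clec7a at 374 FPKM was Clec4n at 171 and then Mrc1 at 142 in the same deposited table. FPKM is scaled to transcript length, so these levels can be set side by side, but with pooled values it could not be tested which neighbors in the order differ. Mgl2 stood in 7th place in the MEK1-low group and in 8th place in the MEK1-hi group, where Clec10a passed it.

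**Figure D1:**
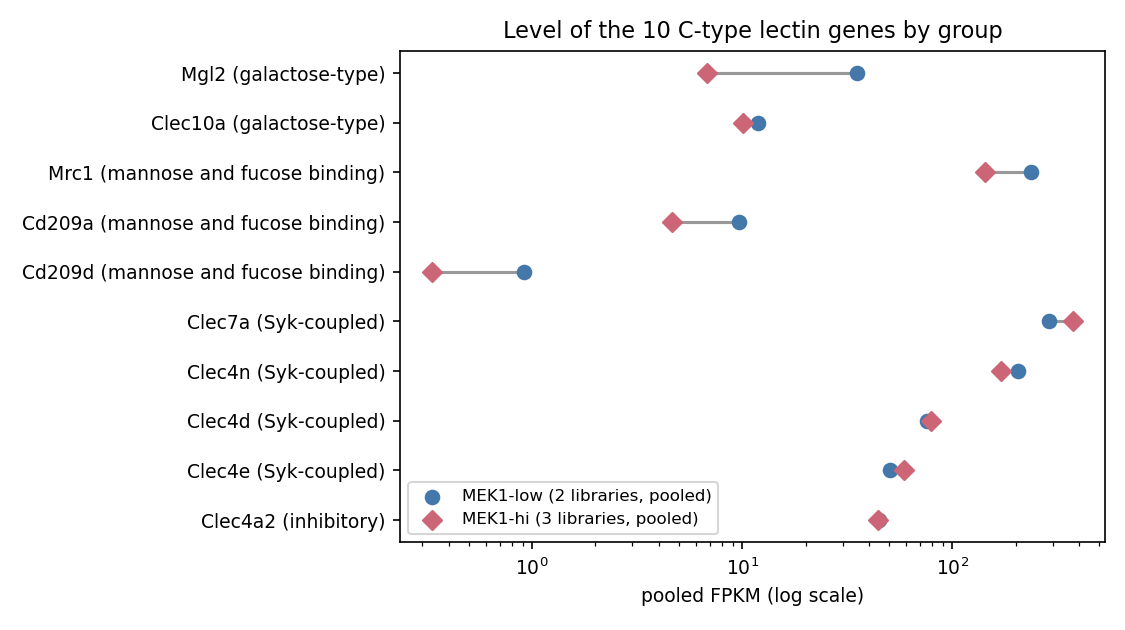
Pooled FPKM of the 10 C-type lectin genes on a log axis, with circles for MEK1-low (2 libraries pooled by the authors) and diamonds for MEK1-hi (3 libraries pooled). The gap is widest for Mgl2, from 35.1 to 6.76 FPKM, and narrowest for Clec4a2, from 44.6 to 44.4, with no error bars because the table holds 1 value per group.

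Mgl2 encodes a receptor for galactose and N-acetylgalactosamine that macrophages and dendritic cells use to take up glycoproteins. MEK1-low macrophages had 35.1 FPKM of it and MEK1-hi macrophages 6.76, a 5.19-fold lower level. On the log2 scale it fell by 2.38 (statistic -4.79, p = 5e-05 and q = 0.00676 by Cuffdiff in the authors' deposited table). That statistic was the lowest readable one among the 12311 tested rows, ahead of Igfbp5 (-4.73) and Cspg4 (-3.73) in the authors' deposited table. In the whole table, 5 cells of the statistic hold error text and could not enter this ranking. The p value of Mgl2 is the smallest the table holds and is shared by 91 rows. Under the stricter Benjamini-Yekutieli adjustment of those p values, 0 rows of the whole table were called, Mgl2 included. Among the 11350 tested rows above 0 in both groups with an FPKM of at least 1 in one of them, 2 had a lower log2 difference than Mgl2.

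Clec10a, the neighboring gene and close paralog of Mgl2, encodes the macrophage galactose lectin MGL1 (CD301a). It stood at 11.8 FPKM (MEK1-low) against 10.1 (MEK1-hi) in the authors' deposited table (log2 difference -0.23, Cuffdiff p = 0.4716, q = 0.9998). Mgl2 was thus 2.97 times the level of Clec10a in MEK1-low and 0.671 times its level in MEK1-hi. Mgl2 made up 74.8% of the summed FPKM of both genes in MEK1-low and 40.2% in MEK1-hi. Whether the 2 genes' differences differ from each other could not be tested without values per library. Reads of such a pair can be assigned to the wrong copy. In the GENCODE transcripts, 91 of 2305 distinct 100-base windows of Mgl2 (3.95%) also occurred in Clec10a, and these were 2.64% of the windows of Clec10a. On mm10, the authors' locus for Mgl2 was chromosome 11, 70130357 to 70137542, and that for Clec10a was 70166623 to 70170836 on the same chromosome. The GENCODE annotation has both as protein-coding genes on the plus strand with no other gene overlapping them.

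The mannose- and fucose-binding receptors had lower values in MEK1-hi, and none of the 3 passed the q threshold. Mrc1, the mannose receptor, an endocytic receptor for mannose-rich glycoproteins and collagen, stood at 236 FPKM in MEK1-low macrophages against 142 in MEK1-hi ones. Its log2 difference was -0.73 (p = 0.01695, q = 0.46 by Cuffdiff in the authors' deposited table). Of the 667 tested rows within 2-fold of the mean level of Mrc1, 19 were called, and the smallest called difference among them was 0.84 on the log2 scale. The difference of Mrc1 was smaller than any that was called at such levels. In FPKM, however, it was the largest of the 10, a difference of -94.2 FPKM against -28.4 for Mgl2.

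Cd209a, the mouse gene usually called DC-SIGN and a marker of monocyte-derived dendritic cells, stood at 9.68 FPKM in MEK1-low macrophages against 4.64 in MEK1-hi ones. The log2 difference was -1.06 (p = 0.0075, q = 0.274 by Cuffdiff in the authors' deposited table). Cd209a lay beyond the smallest called difference among rows of similar level (0.82) without being called itself. Cd209d, which encodes SIGNR3, was the least abundant of the 10, with 0.917 FPKM (MEK1-low) against 0.334 (MEK1-hi) in the authors' deposited table (log2 difference -1.46, Cuffdiff p = 0.108, q = 0.9998). It was the 1 lectin of the 10 that stayed under 1 FPKM in both groups. Of 1408 rows within 2-fold of its mean level, 1 was called, with a difference of 3.31 on the log2 scale and no smaller one was. Together, Mrc1, Cd209a and Cd209d summed to 247 FPKM in the MEK1-low group and to 147 in the MEK1-hi group.

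The Syk-coupled receptors sense fungal and mycobacterial sugars and lipids, and together they summed to 620 FPKM in the MEK1-low group and to 682 in the MEK1-hi group. None of the 4 was called or had an unadjusted p under 0.05. Clec7a encodes Dectin-1, the receptor for fungal beta-glucan, which signals through its own cytoplasmic tail. It stood at 288 FPKM (MEK1-low) against 374 (MEK1-hi) in the authors' deposited table (log2 difference 0.38, Cuffdiff p = 0.1598, q = 0.9998). GENCODE lists Clec7a as a polymorphic pseudogene, a class for genes that are intact in some strains. Clec4n encodes Dectin-2, which binds alpha-mannan, and was the 1 Syk-coupled receptor with a negative difference before any rescaling. Its values were 206 FPKM against 171 in the authors' deposited table (log2 difference -0.27, Cuffdiff p = 0.297, q = 0.9998).

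Clec4d and Clec4e encode MCL and Mincle, which bind mycobacterial cord factor and signal through the Fc receptor gamma chain, as Dectin-2 does. Clec4d stood at 75.7 FPKM (MEK1-low) against 78.9 (MEK1-hi) in the authors' deposited table (log2 difference 0.06, Cuffdiff q = 0.9998). Clec4e stood at 50.7 FPKM against 58.7 there (0.21, Cuffdiff q = 0.9998). The sign for Clec4d is not settled, since it turned negative when both groups were scaled to the same FPKM sum (-0.072) or to the macrophage markers (-0.15). Clec4a2 encodes DCIR, which carries an inhibitory motif, and stood at 44.6 FPKM against 44.4. Its log2 difference of -0.01 was the closest to 0 of the 10 (p = 0.9811, q = 0.9998 by Cuffdiff in the authors' deposited table), and it turned to 0.018 when the median of all tested rows was set to 0. These results do not show that the Syk-coupled or inhibitory receptors were equal in the groups. The smallest difference called at the level of Clec4e and Clec4a2 was 0.86 on the log2 scale.

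**Figure D2:**
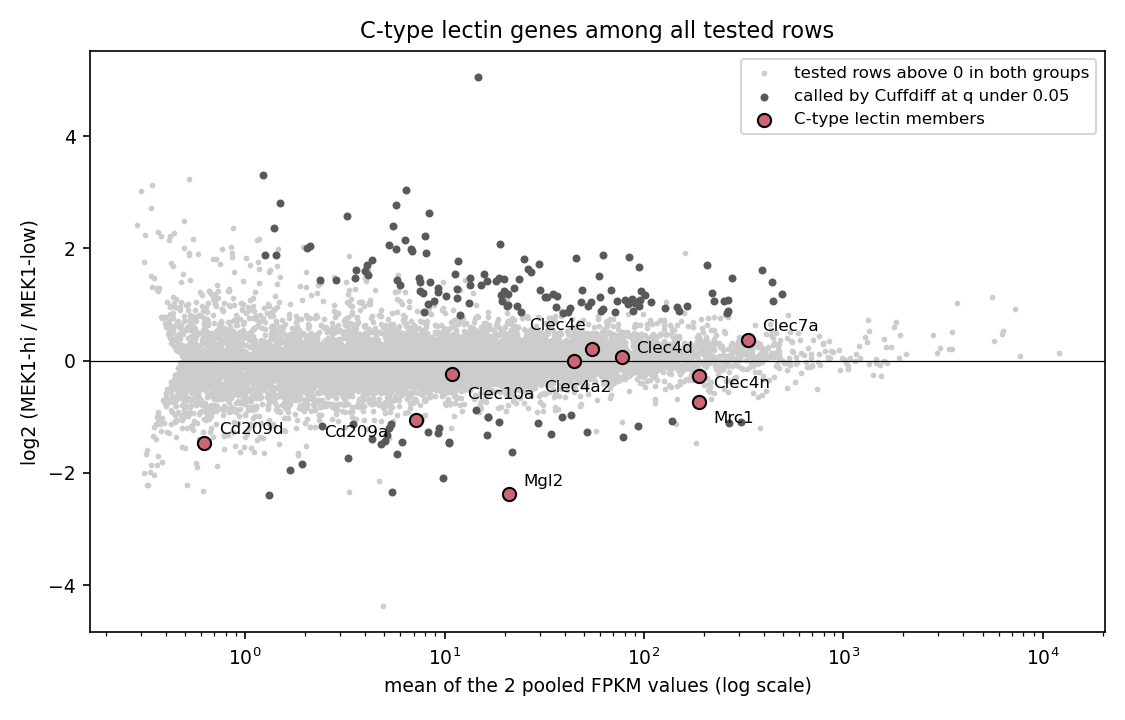
Log2 difference (MEK1-hi over MEK1-low) against the mean of the 2 pooled FPKM values (log axis) for tested rows above 0 in both groups, with rows called by Cuffdiff at q under 0.05 in dark gray and the 10 lectin genes in red. Mgl2, at -2.38, lies at the lower edge of the cloud among rows of its level, while Clec7a, Clec4d, Clec4e and Clec4a2 lie within it.

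The start regions of 3 lectins are shown because they stand for the called gene (Mgl2), the uptake receptor with the largest loss in FPKM (Mrc1) and the most abundant signalling receptor (Clec7a). Each sequence is the 250 bases before the transcription start in RefSeq, build GRCm38.p6, 5′ to 3′ on the gene's strand. Windows were found for 8 of the 10 genes. Clec7a had 2 windows, of which the first listed was used. That window overlaps the authors' locus for Clec7a, which ends at 129472785, so its distances hold for this RefSeq start only. Capitals mark matches, on either strand, to the PU.1 core GAGGAA (PU.1 is a lineage factor of macrophages) and to the STAT6-type motif TTCNNNNGAA. STAT6 acts after interleukin-4.
Mgl2 (chr11:70130107-70130356, plus strand): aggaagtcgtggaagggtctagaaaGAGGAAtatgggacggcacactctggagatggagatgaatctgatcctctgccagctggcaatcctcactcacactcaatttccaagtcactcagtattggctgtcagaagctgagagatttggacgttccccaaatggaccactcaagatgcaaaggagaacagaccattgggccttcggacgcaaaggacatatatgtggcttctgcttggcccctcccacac
Mrc1 (chr2:14229164-14229413, plus strand): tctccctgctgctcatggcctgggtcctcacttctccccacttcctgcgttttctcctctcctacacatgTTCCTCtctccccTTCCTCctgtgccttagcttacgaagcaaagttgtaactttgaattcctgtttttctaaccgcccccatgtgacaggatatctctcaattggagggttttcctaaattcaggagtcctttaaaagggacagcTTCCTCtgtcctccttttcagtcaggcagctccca
Clec7a (chr6:129472780-129473029, minus strand): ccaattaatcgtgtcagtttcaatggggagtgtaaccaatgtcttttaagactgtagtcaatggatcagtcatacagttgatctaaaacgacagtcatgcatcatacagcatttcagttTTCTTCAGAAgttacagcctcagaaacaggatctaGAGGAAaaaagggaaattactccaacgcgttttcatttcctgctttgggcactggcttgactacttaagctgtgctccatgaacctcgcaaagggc
The PU.1 core was present in 6 of the 8 windows, beside 23.3% of 32851 RefSeq windows of the same length. Mrc1 held 3 matches and Mgl2 held 1, which began 225 bases before the start. The STAT6-type motif was found in 1 of the 8, Clec7a (5.85% of all windows), as TTCTTCAGAA beginning 131 bases before the start. No matches in these windows overlapped each other. The letters describe these windows only and say nothing about binding, or about enhancers elsewhere.

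All 10 genes but Mrc1 sit in clusters of related lectins, and the neighbors followed different patterns from cluster to cluster. In the Cd209 cluster on chromosome 8, all 5 tested genes had lower values in MEK1-hi, with log2 differences from -2.22 to -1.03. The scalings tried shift every row by the same amount, at most 0.023 upward, so they could not change these signs. None of the 5 was called. Cd209f was the most abundant of the neighbors, at 4.85 FPKM against 2.37 in the authors' deposited table (Cuffdiff q = 0.749). Cd209c and Cd209g were at or under 1.11 FPKM in both groups in that table.

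In the Clec4a cluster on chromosome 6, which holds Clec4a2, Clec4n, Clec4d and Clec4e, 6 of 8 tested genes lay above 0 and 0 were called (5 of 8 above 0 with equal FPKM sums or the macrophage markers as the scale). The 4 tested neighbors outside the 10 were all above 0, with Clec4a4 under 1 FPKM in both groups. Clec4b1, a dendritic cell lectin, was at 2.00 FPKM against 8.41 in the authors' deposited table and just missed the threshold (log2 difference 2.07, Cuffdiff q = 0.051). Clec4a1 was at 109 FPKM against 151 and Clec4a3 at 76.4 against 103 there, neither of them called. Clec4a4 shares sequence with Clec4a2: 64 of 2990 distinct 100-base windows of Clec4a2 transcripts (2.14%) also occurred in it. The other 7 of the 10 lectins had 0 windows in common with another gene.

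The Clec7a cluster, further along chromosome 6, had 8 of 9 tested genes above 0, beside 46.2% of all tested rows. The scalings tried shift every row by -0.21 to 0.023, too little to change any of these signs. Among the genes above 0, Clec1a and Clec1b stayed under 1 FPKM in both groups. Of the cluster's 8 tested genes besides Clec7a, 2 were called higher and 0 lower, beside 0.999% of all tested rows called higher. Clec9a, a receptor for actin on dead cells and a marker of cross-presenting dendritic cells, rose from 0.931 FPKM to 5.58 in the authors' deposited table (log2 difference 2.58, Cuffdiff q = 0.00676). Clec12a, an inhibitory receptor for uric acid crystals, rose from 106 to 195 FPKM there (0.89, Cuffdiff q = 0.0202). Olr1, the oxidized LDL receptor, was the gene below 0 (-0.48, Cuffdiff q = 0.959). Beside Mgl2 on chromosome 11, Asgr2 of the asialoglycoprotein receptor was at 1.88 FPKM against 1.00 in the authors' deposited table (Cuffdiff q = 0.9998).

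**Figure D3:**
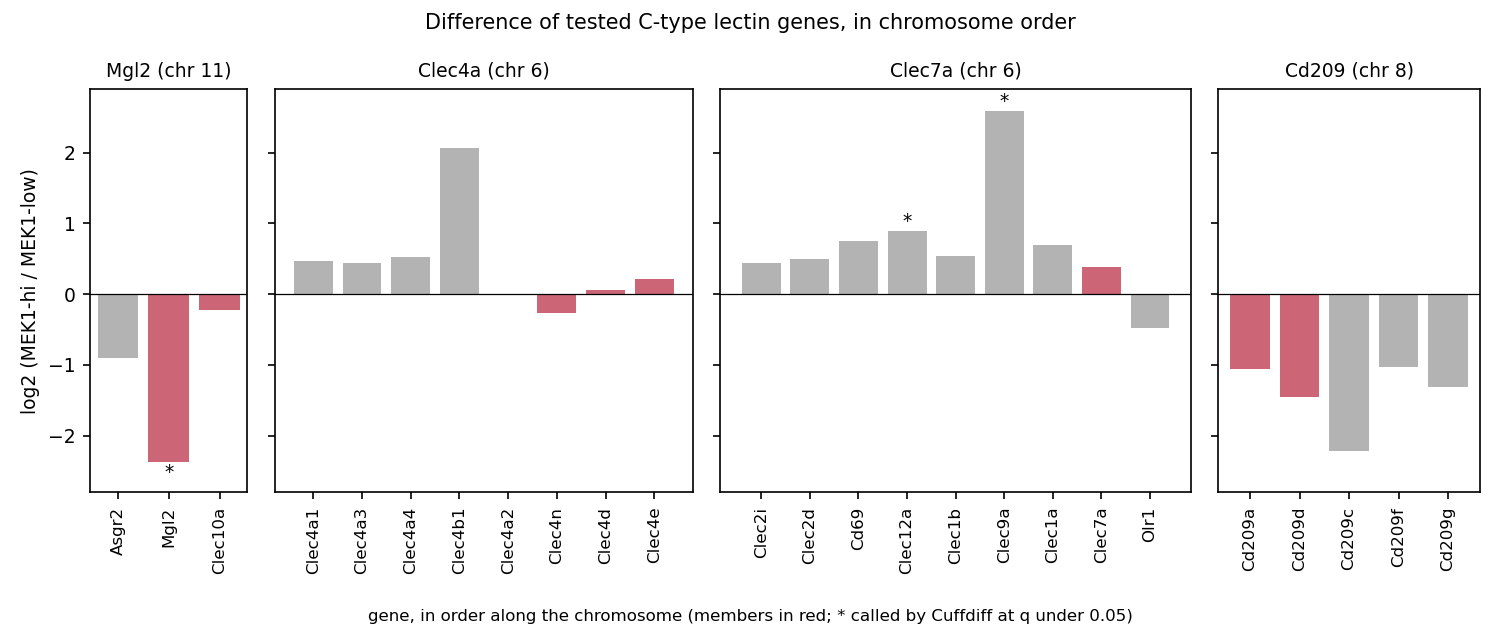
Log2 difference (MEK1-hi over MEK1-low) of tested lectin genes in 4 gene clusters, in order along the chromosome, with the followed genes in red, their neighbors in gray and an asterisk on rows called by Cuffdiff at q under 0.05. All bars of the Cd209 cluster point down, from -2.22 to -1.03, while 8 of 9 in the Clec7a cluster point up.

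Genes that carry the lectins' signals were not called. Of the 34 activating signalling genes tested, 0 were called by Cuffdiff. At an unadjusted p under 0.05, 3 were higher and 1 lower, beside 3.5% and 2.58% of all tested rows. The median log2 difference of the 34 genes was 0.16, and it turned to -0.047 when scaled to the macrophage markers. The adaptor genes Tyrobp (1490 and 1769 FPKM) and Fcer1g (1392 and 1812 FPKM), which encode DAP12 and the Fc receptor gamma chain, were the most abundant in the authors' deposited table. Of the 7 inhibitory signalling genes tested, 0 were called (median 0.23), while 2 were higher and 0 lower before adjustment, beside the same shares. Ptpn6, the phosphatase SHP-1, had 89.8 and 143 FPKM (Cuffdiff q = 0.214) and Inpp5d, the phosphatase SHIP1, 101 and 105 FPKM (Cuffdiff q = 0.9998) in the authors' deposited table. Of 19 tested cytokine and response genes downstream of Syk and Card9, 0 were called (median 0.05, or -0.084 with equal FPKM sums). Among these 19, 3 were higher and 2 lower before adjustment, beside 3.5% and 2.58% of all tested rows. The most abundant by the mean of the groups, the interleukin-1 beta gene Il1b and the chemokine gene Cxcl1, had log2 differences of 0.35 and 0.05.

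In the interleukin-4 response list, to which Mgl2 and Mrc1 are often counted, called genes lay in both directions. Of 21 tested genes besides the lectins, 2 were called lower and 1 higher by Cuffdiff, beside 0.325% called lower and 0.999% higher in the whole table. Before adjustment, 5 had a p under 0.05 and were lower and 2 were higher, beside 2.58% and 3.5% of all tested rows. Above 0 lay 10 genes and below 0 lay 11 (median -0.01), and the division depended on the scale: 12 and 9 with the median of all rows set to 0 (median 0.017), 8 and 13 with equal FPKM sums (-0.14) and 6 and 15 relative to the macrophage markers (-0.22). Arg1, which encodes arginase 1, fell from 32.8 FPKM to 10.6, and the chemokine gene Ccl17 fell from 15.9 to 3.73, in the authors' deposited table (Cuffdiff q = 0.00676 and 0.0276). Socs1, an inhibitor of cytokine receptor signalling that interferons also induce, rose from 13.0 FPKM to 31.8 in the authors' deposited table (Cuffdiff q = 0.00676). The receptor gene Il4ra and the transcription factor gene Stat6, chosen after their values were seen, had log2 differences of 0.20 and 0.09 (both Cuffdiff q = 0.9998).

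**Figure D4:**
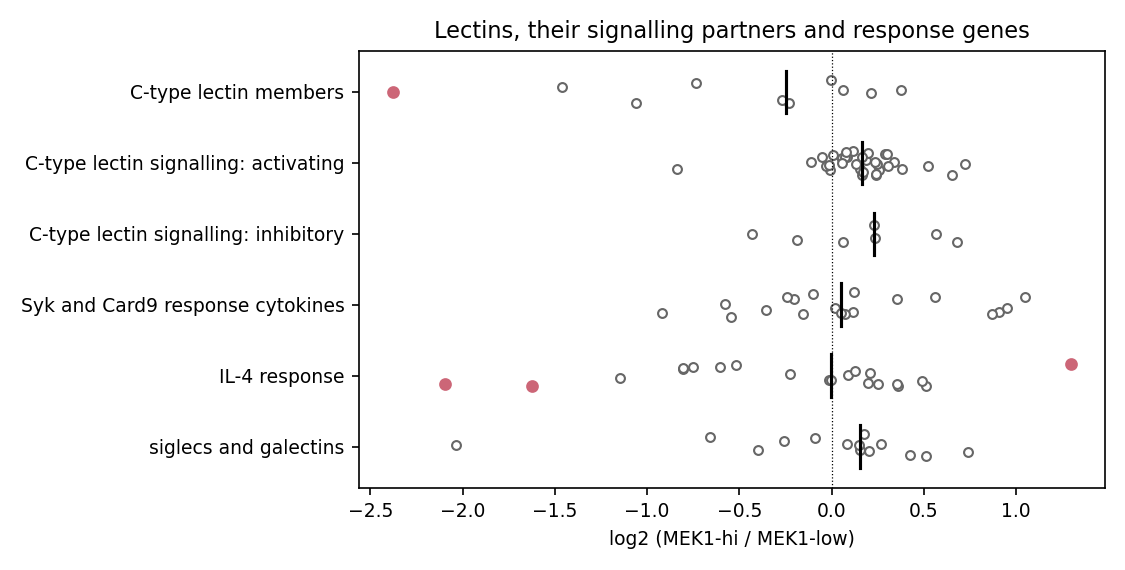
Log2 difference (MEK1-hi over MEK1-low) of each tested gene, with 1 row of points for the 10 lectins and for each of 5 related lists, where filled points were called by Cuffdiff at q under 0.05, open points were not, vertical bars are medians and the vertical scatter has no meaning. The filled points are Mgl2 among the lectins (-2.38) and Ccl17, Arg1 and Socs1 in the interleukin-4 list.

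Among markers of other cells, called genes were found in the monocyte, fibroblast or tumor cell and dendritic cell lists. In each list the most abundant genes are those with the highest mean of the groups. The macrophage markers were abundant in both, with sums over 12 genes of 17882 FPKM (MEK1-low) against 20679 (MEK1-hi) and 0 called. Lyz2 and C1qa were the most abundant of them. At an unadjusted p under 0.05, 1 of the 12 was higher and 0 lower, beside 3.5% and 2.58% of all tested rows. The conventional dendritic cell markers, which bear on Clec9a, summed to 108 and 116 FPKM over 11 genes. They do not single out the dendritic cells that Mgl2 and Cd209a mark. Of the 11 genes, 9 lay above 0 and 1, Xcr1, was called higher, beside 0.999% of all tested rows (Fscn1 and Ccr7 were the most abundant). At an unadjusted p under 0.05, 3 were higher and 0 lower, beside 3.5% and 2.58% of all tested rows. Monocyte markers summed to 749 and 629 FPKM over 10 genes, with 5 called higher and 0 lower (Fn1, which fibroblasts also make, and Plac8 were the most abundant), beside 0.999% of all tested rows called higher. At an unadjusted p under 0.05, 6 of the 10 were higher and 1, Fn1, was lower, beside 3.5% and 2.58% of all tested rows. Fn1 by itself had 535 FPKM (MEK1-low) against 232 (MEK1-hi) in the authors' deposited table (Cuffdiff p = 0.00565, q = 0.23). It was the 1 gene of the list below 0 and was set apart after its values were seen. The other 9 monocyte genes thus all lay above 0, and they summed to 214 FPKM (MEK1-low) against 397 (MEK1-hi). Markers of fibroblasts or tumor cells summed to 1239 and 749 FPKM, with all 9 below 0 and 2 called lower (Col3a1 and Col1a1 the most abundant), beside 0.325% of all tested rows. Before adjustment 6 of the 9 were lower at a p under 0.05, beside 2.58%. Over the B, NK and T cell, neutrophil and endothelial lists, 0 of 19 tested rows were called by Cuffdiff. Among these 19 rows, 3 were higher and 1 lower before adjustment, beside 3.5% and 2.58% of all tested rows. In the B cell list 4 of 5 rows, in the NK cell list 6 of 7, in the neutrophil list 6 of 10 and in the endothelial list 3 of 6 were under 1 FPKM in both groups. The most abundant genes of these lists were Cd79b and Cd79a, a joint Klra row and Gzma, Csf3r and S100a8, and Pecam1 and Cdh5. The 7 T cell genes summed to 8.50 and 13.3 FPKM, with Cd3g and Cd8a the most abundant. Fewer cells of a type and less RNA per cell cannot be told apart in these pooled samples, and the part of other cells in the lectin differences was not tested.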

How the data were processed

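RNA was extracted with TRIzol, and stranded mRNA libraries from 750 ng were sequenced as paired 100-base reads to a planned 25000000 per sample, per the labels' protocols. FastQC 0.73, TopHat, Cufflinks, Cuffdiff and mm10 are named in the submitters' processing notes, with no role or order. For annotation and strand setting, nothing is given in the sources used here. A single Cuffdiff table with FPKM pooled per group was deposited by the authors. Its test statistic is a score as deposited by the authors, and its p-value and q-value columns are theirs too. The q values match a Benjamini-Hochberg adjustment over the 12311 tested rows. There are no values per library, so depth is unknown and no test over replicates, no SD and no detection limit could be given.

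The log2 difference was computed from the deposited FPKM, since 515 cells of the deposited fold column hold spreadsheet error text. Calls use the authors' q at 0.05. The 10 lectins, 9 related gene lists and 9 marker lists were chosen with earlier results of these data known. Of the list symbols, 3 were not found in the table. Named genes are all 10 lectins, the called genes of each list or, with none called, its 2 most abundant, and the 2 most abundant markers per cell type. Others (cluster neighbors, Fn1's values, Il4ra, Stat6, Mrc2, Cd207, Cd72 and Siglec1) were named after their values were seen. No genes are named for a like pattern, since 1 value per group leaves 1 difference per gene. The planned protein comparison was not made. Loci are the authors', written 1-based. GENCODE M21 transcripts gave the shared windows on both strands. The adjustment code was tested on simulated data. Software was matplotlib 3.10.9, scipy 1.17.1, pandas 2.3.3 and numpy 2.4.6 under Python 3.11.15. Alternatives changed the threshold, adjustment, filter, source of p, pseudocount and scaling.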

Additional observations from a re-analysis of the deposited data

How the results depend on the processing

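Mgl2 stayed the 1 lectin called, and called lower, with q under 0.01 or 0.1, with rows under 1 FPKM left out, with a 2-fold minimum, with p from a normal distribution and with multi-symbol rows left out. For Mgl2 itself the q limits and the 2-fold minimum could not change the call, since its q was 0.00676 and its fall 5.19-fold. The call of Mgl2 was lost under the Benjamini-Yekutieli adjustment, with 0 lectins and 0 rows of the whole table called. At an unadjusted p under 0.05, 3 lectins were lower, beside 2.58% of all tested rows. No lectin was called higher under any of these settings. Over the 9 related lists (122 tested rows), 3 genes were called higher and 2 lower, beside 0.999% and 0.325% of all tested rows. At q under 0.1 these became 4 and 4, while 198 of the 12311 tested rows were called, 54 of them lower. With rows under 1 FPKM left out and the adjustment repeated, they became 4 and 2, while 173 rows were called, 42 of them lower. An unadjusted p under 0.05 gave 15 higher and 14 lower, beside 3.5% and 2.58% of all tested rows. The normal distribution gave 15 called rows in the whole table in place of 163. The median log2 difference of the lectins was -0.25 and became -0.24 with a pseudocount of 1 FPKM, -0.38 with equal FPKM sums, -0.23 with the median of tested rows at 0, -0.46 relative to the macrophage markers and -0.23 without Cd209d. Equal sums shifted all rows by -0.13 and the macrophage markers by -0.21. Of 50 single-gene values, 47 kept their direction. Those with a pseudocount could not change it, since the same constant was added to both groups. The 3 that changed were Clec4d with equal sums (-0.072) and relative to macrophage markers (-0.15), and Clec4a2 with the median at 0 (0.018). These are shifts by construction, and q was not recomputed for them. Leaving out each library was not run, as the table holds no values per library. No paired analysis was possible because the columns are pooled per group.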

Other observations

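Among 12 other tested C-type lectin-like receptors, 0 were called by Cuffdiff. At an unadjusted p under 0.05, 0 were higher and 3 lower, beside 3.5% and 2.58% of all tested rows. Of the 12, 9 lay below 0 (median -0.43, 10 of 12 below 0 with equal FPKM sums). The most abundant tested by the mean of the groups were Cd93, a receptor of monocytes and endothelium, with 79.9 and 76.0 FPKM, and Cd302, with 41.8 and 58.2 FPKM, in the authors' deposited table. Mrc2 and Cd207, both lower before adjustment, are named after their values were seen. Mrc2, the collagen-binding relative of Mrc1 that fibroblasts also make, had 26.1 and 17.0 FPKM there (Cuffdiff q = 0.466), and Cd207, langerin, 13.5 and 7.89 FPKM (Cuffdiff q = 0.509). Cd72 was not tested, since Cuffdiff gave its row the status FAIL.

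Among 14 sialic acid-binding and galactose-binding lectins of the siglec and galectin families, 0 were called by Cuffdiff. At an unadjusted p under 0.05, 0 were higher and 2 lower, beside 3.5% and 2.58% of all tested rows. The median difference of the 14 was 0.15, which turned to -0.057 relative to the macrophage markers. Lgals1 and Lgals3, the most abundant, had 1526 and 449 FPKM in MEK1-low and 1277 and 507 in MEK1-hi in the authors' deposited table. Siglec1, a marker of resident-like macrophages that was named after its value was seen, had 83.1 and 52.5 FPKM there (log2 difference -0.66, Cuffdiff q = 0.36).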
